A study of Mus musculus with 13 samples.

Results

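The 10 genes Slc7a1, Slc7a3, Slc7a5, Slc7a6, Slc7a11, Slc3a2, Slc1a4, Slc1a5, Slc38a2 and Slc43a2 encode amino acid transporters of the plasma membrane. They were taken by symbol, with every probe set annotated to one of them: 21 probe sets on the Mouse Genome 430 2.0 array, among 18194 genes with a probe set of 1 symbol, and 10 on the Mouse Gene 1.0 ST array, among 19938 such genes. The genes were chosen by their log2 differences between groups in the 4 comparisons below, the same values that are given here. Their differences are therefore given as descriptions, and a count of calls among them supports nothing.

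All samples were B3 cells, a mouse pre-B cell line that carries its own Ikaros (Ikzf1), a zinc finger DNA-binding protein of lymphocytes. On 430 2.0 arrays, RNA was measured 48 h after infection with MSCV vectors encoding wild-type Ikaros (HA-Ikaros-IRES-GFP, 2 arrays) or the mutant 159A, which is deficient in DNA binding (HA-159A Ikaros-IRES-GFP, 2 arrays). On Gene 1.0 ST arrays, cells carrying Ikaros fused to a hormone-binding domain of the estrogen receptor (HA-Ikaros-ERt2-IRES-GFP) were exposed to 4-hydroxytamoxifen for 2 h (3 arrays) or 6 h (3 arrays), and cells carrying the vector ERt2-IRES-GFP were exposed to it for 6 h (3 arrays). Both groups at 48 h thus carry a transgene, and all 9 Gene 1.0 ST arrays come from cells exposed to 4-hydroxytamoxifen. No vector group at 2 h and no untreated Ikaros-ERt2 group was among the samples, so the time of exposure and the transgene cannot be told apart in the comparison of Ikaros-ERt2 at 2 h with the vector at 6 h. Both Ikaros-ERt2 groups are set against the same 3 vector arrays. The replicates are called biological in the labels, which do not say whether they are separate infections, so every SD below is the spread between these samples. Each SE comes from limma, the model fitted across all genes. It pools the spread over all groups of an array type and is moderated toward that of all genes tested. It too reflects only these samples.

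On the deposited log2 scale, arrays of one group correlated at 0.987 to 0.995 on 430 2.0 and at 0.989 to 0.994 on Gene 1.0 ST. On 430 2.0, 36.7% of all values lay within 0.01 of the lowest value, 2.19, and a group mean up to 1 log2 unit above that lowest value is called near the floor here. For vector replicate 1, one label names the inducible Ikaros construct and the title names the vector. Its Ikzf1 level was 9.16, beside 9.25 and 9.39 on the other vector arrays and 13.2 to 13.4 on the 6 Ikaros-ERt2 arrays, so it was kept as a vector array. At 48 h, Ikzf1 averaged 12.04 on the Ikaros arrays and 11.71 on the 159A arrays. Of 8 B lineage markers, 7 had a probe set of 1 symbol, with group means of 8.62 to 14.9 on 430 2.0 and 7.22 to 13.2 on Gene 1.0 ST. At 48 h, 2 of these 7 fell, 2 rose and 3 were not called (limma, adjusted p under 0.05), with a median log2 difference of 1.24. Of all genes tested there, 8.47% were called lower and 6.38% higher. Igll1 and Vpreb1, which encode the surrogate light chain, fell by 5.92 and 3.92 at 48 h, and Cd79b and Pax5 rose by 2.12 and 1.25. At 6 h, Vpreb1, Igll1 and Blnk were called lower than the vector, by 1.17, 1.07 and 0.94, and 0 rose. Vpreb1 alone was called at 2 h, lower by 0.52. From 2 h to 6 h, 2 of the 7 rose and 2 fell. The shares of all genes called were 5.78%, 1.86% and 0.903% in these early comparisons. The part of these changes in the transporter values was not tested. On 430 2.0 both groups were near the floor for 3 of 4 T cell, 4 of 5 myeloid, 3 of 4 fibroblast and 1 of 2 erythroid markers. On Gene 1.0 ST the highest group means of myeloid, erythroid, T cell and fibroblast markers were 4.98, 5.17, 5.81 and 6.41. The vector means of Slc43a2, Slc7a11 and Slc7a3, 6.51, 6.57 and 6.61, were close to the last of these, so their early values are low. In bulk RNA such as this, fewer cells with a transcript and less of it in each cell cannot be told apart.

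Amino acids do not cross the plasma membrane on their own, and growing lymphocytes take them up through carriers of the solute carrier families. Slc3a2 (CD98 heavy chain, 4F2hc) is a glycoprotein that brings a light chain to the membrane. With Slc7a5 (LAT1) it exchanges large neutral amino acids such as leucine, with Slc7a6 (y+LAT2) cationic for neutral amino acids, and with Slc7a11 (xCT) cystine for glutamate. Slc7a1 and Slc7a3 (CAT-1 and CAT-3) carry arginine and lysine without a heavy chain. Slc1a5 (ASCT2) exchanges neutral amino acids including glutamine, and Slc1a4 (ASCT1) alanine, serine, cysteine and threonine. Slc38a2 (SNAT2) is a sodium-coupled carrier induced on amino acid shortage, and Slc43a2 (LAT4) lets branched-chain amino acids, phenylalanine and methionine pass by facilitated diffusion. The transcription factor ATF4, made when amino acids run short, and Myc are both known to act on several of these genes.

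At 48 h, 7 of the 10 transporters were lower on both Ikaros arrays than on both 159A arrays, 2 were higher, and Slc7a11 was at the lowest value on all 4. Of all 10916 genes tested, 30.0% were lower and 27.7% higher in the same way, so nothing is read from this count. Slc7a1, Slc7a3, Slc7a5 and Slc1a4 were each 10.1-fold or more lower, whereas Slc7a6, Slc3a2 and Slc1a5 were 1.72-fold to 2.29-fold lower. In the first 6 h of 4-hydroxytamoxifen no log2 difference from the vector exceeded 0.74. Slc7a3 was above the vector at both times, Slc7a6 was below it at both, and Slc43a2 was below it at 2 h and above it at 6 h.

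**Figure D1:**
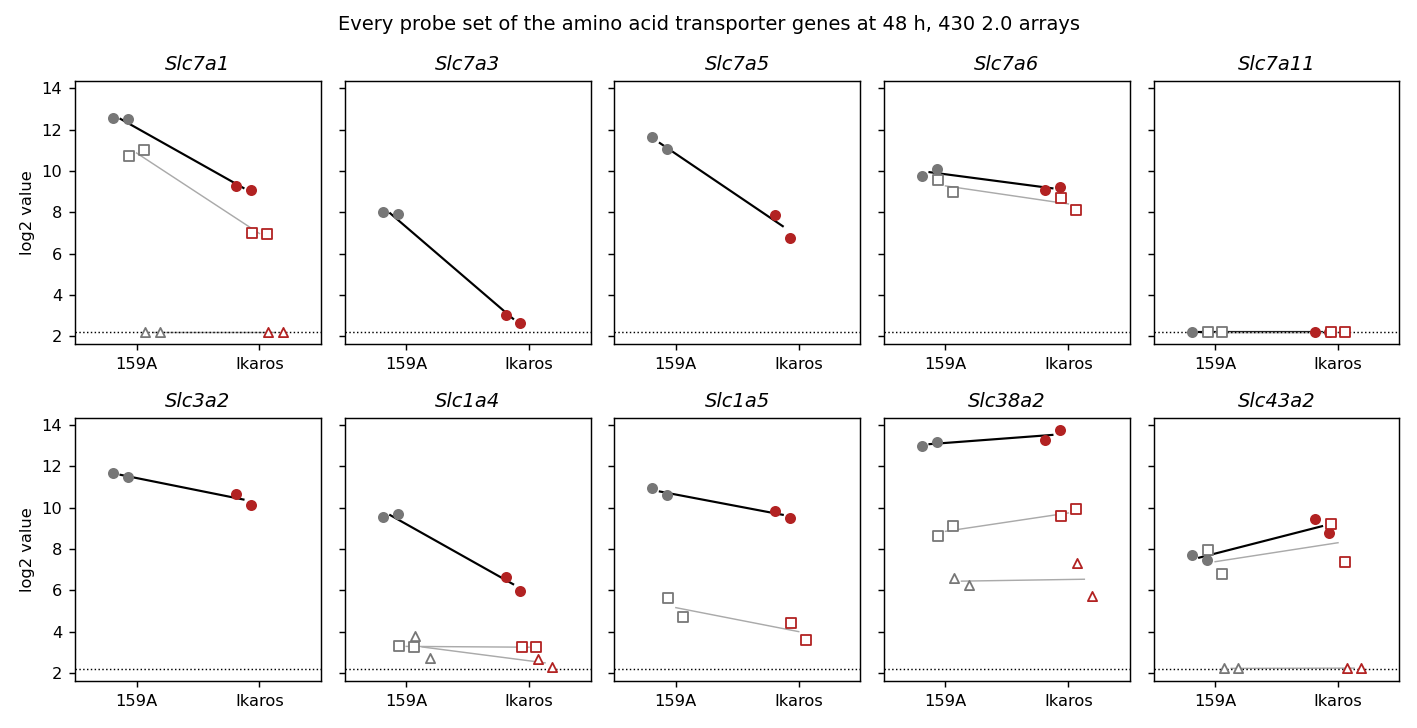
Log2 value of every probe set of the 10 genes on the 4 arrays at 48 h, 159A in grey and Ikaros in red. Filled circles are the probe set with the highest mean, which stands for the gene, open symbols are the others, lines join group means, and the dotted line is the lowest value, 2.19; the Slc7a1, Slc7a3, Slc7a5 and Slc1a4 circles drop by 3.34 or more.

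Slc3a2, the heavy chain, is the partner that the light chains share. At 48 h its only probe set read 11.68 and 11.51 on the 159A arrays and 10.68 and 10.12 on the Ikaros arrays. Both Ikaros arrays were lower, with group means of 10.40 ± 0.40 (SD, n = 2) and 11.59 ± 0.12 (SD, n = 2), a log2 difference of -1.20 ± 0.25 (SE), or 2.29-fold. On Gene 1.0 ST it read 11.11, 11.25 and 11.01 with the vector, 10.85, 11.02 and 10.84 at 2 h, and 10.96, 10.99 and 10.88 at 6 h. The log2 difference from the vector was -0.22 ± 0.08 (SE) at 2 h, where 1 array reached into the vector's range, and -0.18 ± 0.08 at 6 h, where all 3 arrays lay below it.

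The Ikaros core letters TGGGAA, in either orientation, stand once in the 300-base promoter window of 1 annotated start of Slc3a2, as TTCCCA at base -124 from that start. RefSeq (GRCm38.p6) lists other starts of this gene. TGGGAA is present in 25.6% of all 32851 windows of that length, so a match is common. The heavy chain, lower at 48 h, was not called there (limma adjusted p = 0.0859). The stretch of chr19:8713998-8714037, minus strand, is printed with the match in capitals:
Slc3a2: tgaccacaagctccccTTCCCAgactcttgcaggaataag

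Slc7a5, the light chain that makes Slc3a2 the leucine transporter LAT1, had 1 probe set on each array type. At 48 h it read 11.67 and 11.04 on the 159A arrays and 7.88 and 6.78 on the Ikaros arrays. The groups were far apart although the replicates of each differed by more than for most members, with means of 11.35 ± 0.44 and 7.33 ± 0.78 (SD, n = 2 each) and a log2 difference of -4.03 ± 0.54 (SE), or 16.3-fold. On Gene 1.0 ST it read 10.76, 10.73 and 10.73 with the vector, 10.63, 10.53 and 10.75 at 2 h, and 10.58, 10.57 and 10.53 at 6 h. All 3 arrays at 6 h were below the vector arrays and the 2 h arrays overlapped them, but the differences were small, -0.18 ± 0.07 (SE) at 6 h and -0.10 ± 0.07 at 2 h. The light chain and its heavy chain thus differed in size at 48 h, 16.3-fold against 2.29-fold within the same arrays, and this difference between the genes was not tested.

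Slc7a6, the light chain of y+LAT2, was lower than the vector at 2 h and lower again at 6 h. It read 9.21, 9.15 and 9.34 with the vector, 9.03, 8.94 and 8.98 at 2 h, and 8.86, 8.71 and 8.77 at 6 h. The 3 groups did not overlap, with means of 9.23 ± 0.10, 8.98 ± 0.04 and 8.78 ± 0.08 (SD, n = 3 each). The log2 difference from the vector was -0.25 ± 0.07 (SE) at 2 h and -0.45 ± 0.07 at 6 h, or 1.37-fold lower. Only the difference at 6 h from the vector was called (limma adjusted p = 0.0049). The limma adjusted p was 0.133 at 2 h and 0.253 between 2 h and 6 h, so neither step alone was called. At 48 h its first probe set read 9.78 and 10.11 with 159A and 9.08 and 9.25 with Ikaros, a difference of -0.78 ± 0.17 (SE). The second read 9.56 and 9.0 against 8.69 and 8.12, also with no overlap, and its group means were 1.83-fold apart, beside 1.72-fold for the first.

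Slc7a11, the cystine carrier, was at the lowest value, 2.19, with both of its probe sets on all 4 arrays at 48 h, so no difference could be given there. Its Gene 1.0 ST values were 6.52, 6.93 and 6.26 with the vector, 6.79, 7.01 and 7.51 at 2 h, and 6.69, 7.39 and 6.66 at 6 h. The groups overlapped at both times, and the log2 differences from the vector, 0.53 and 0.34, came with an SE of 0.23. Levels on different array types are normalized apart and are not set against each other.

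The 9-base pattern TGATGNAAN is a composite element that ATF4 and C/EBP proteins are known to bind, and 3.95% of the 32851 promoter windows hold it on either strand. The window of Slc7a11 holds it 2 times, at bases -66 and -48 from 1 of its annotated starts, once on each strand, and TGGGAA at base -180. The Slc1a4 window holds it at base -5, and TGGGAA at base -141. These are shown because the element belongs to the amino acid response described below, with matches in capitals and both genes on the minus strand, from chr3:50443634-50443703 and chr11:20332694-20332863:
Slc7a11: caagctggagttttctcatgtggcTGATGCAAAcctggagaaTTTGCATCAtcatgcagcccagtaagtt
Slc1a4: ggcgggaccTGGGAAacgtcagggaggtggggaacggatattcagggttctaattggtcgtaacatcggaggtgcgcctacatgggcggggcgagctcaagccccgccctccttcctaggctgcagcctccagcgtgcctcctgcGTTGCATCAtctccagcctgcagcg

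Promoter windows were used for 7 of the 10 genes, those other than Slc7a3, Slc7a5 and Slc1a5, as 10 windows that run from 250 bases before a start to 50 after it. The letters CACGTG, the E-box read by Myc with Max, were in none of these 10 and in 7.15% of all windows. TGGGAA and TGATGNAAN were in no window of Slc7a1, Slc7a6, Slc38a2 or Slc43a2. Matches are given as letters only, and neither a match nor its absence shows whether a protein binds there.

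Slc7a1, the cationic carrier CAT-1, showed its difference on both of its well-measured probe sets. The first read 12.54 and 12.50 with 159A and 9.29 and 9.07 with Ikaros, with means of 12.52 ± 0.03 and 9.18 ± 0.16 (SD, n = 2 each). The log2 difference was -3.34 ± 0.11 (SE), or 10.1-fold. The second read 10.75 and 11.0 against 6.98 and 6.97, or 14.9-fold, and the last was at 2.19 on all 4 arrays. In the first 6 h the gene did not show this: it read 9.08, 9.22 and 9.14 with the vector, 9.12, 9.04 and 9.41 at 2 h, and 9.0, 9.11 and 8.97 at 6 h. The groups overlapped at both times, with differences from the vector of 0.05 ± 0.10 (SE) and -0.12 ± 0.10.

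Slc7a3, the related carrier CAT-3, lay on different sides of its control at early and late times. At 48 h it read 7.99 and 7.91 with 159A and 3.03 and 2.66 with Ikaros. The Ikaros mean, 2.85 ± 0.26 (SD, n = 2), was near the floor, and against the floor limit of 3.19 the gene was at least 27.1-fold lower than in the 159A group (7.95 ± 0.06). The 9 Gene 1.0 ST arrays gave 6.83, 6.69 and 6.31 with the vector, 7.01, 7.45 and 7.16 at 2 h, and 7.14, 7.77 and 7.12 at 6 h. All 6 Ikaros-ERt2 arrays were above the 3 vector arrays, by 0.60 ± 0.19 (SE) at 2 h, or 1.51-fold, and 0.74 ± 0.19 at 6 h, or 1.67-fold. The 48 h and early comparisons differ in construct, control and array type as well as in time, so the opposite signs were not compared by a test.

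Slc1a4 (ASCT1) was among the transporters with the largest late differences. Its main probe set read 9.57 and 9.71 with 159A and 6.65 and 5.95 with Ikaros, a log2 difference of -3.34 ± 0.31 (SE), or 10.2-fold. Its other probe sets were low, at 3.80 and 2.71 against 2.69 and 2.29 for one, and at 3.32 and 3.25 against 3.25 and 3.25 for the other. On Gene 1.0 ST it read 7.66, 7.75 and 7.75 with the vector, 7.78, 7.71 and 8.02 at 2 h, and 7.39, 7.75 and 7.75 at 6 h, with overlap at both times. Replicate 1 at 6 h was the low one.

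Slc1a5 (ASCT2), the glutamine exchanger, differed less at 48 h than Slc1a4 in the same arrays. It read 10.93 and 10.64 with 159A and 9.83 and 9.49 with Ikaros, a log2 difference of -1.13 ± 0.20 (SE), or 2.19-fold. A second, dimmer probe set gave 5.61 and 4.71 against 4.42 and 3.58, or 2.24-fold, also without overlap. In the early experiment it read 10.59, 10.47 and 10.49 with the vector, 10.50, 10.47 and 10.56 at 2 h, and 10.38, 10.34 and 10.28 at 6 h. At 2 h it overlapped the vector, with a difference of -0.01 ± 0.07 (SE), and at 6 h it was below the other groups on all 3 arrays, by -0.18 ± 0.07 from the vector.

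Slc38a2 (SNAT2) and Slc43a2 (LAT4) were the transporters above 159A at 48 h. Slc38a2 read 12.99 and 13.17 with 159A and 13.27 and 13.78 with Ikaros, a small difference of 0.45 ± 0.23 (SE), or 1.36-fold. A second probe set read 8.62 and 9.09 against 9.58 and 9.91, or 1.85-fold, while the last overlapped, at 6.61 and 6.27 against 7.33 and 5.74. Its early values were 10.31, 10.29 and 10.28 with the vector, 10.40, 10.17 and 10.52 at 2 h, and 10.21, 10.28 and 10.31 at 6 h. No early group stood apart, and the differences from the vector, 0.07 and -0.03, were no larger than their SE of 0.09.

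Slc43a2 was the transporter with the largest step between the 2 early times. It read 6.48, 6.53 and 6.53 with the vector, 6.09, 6.16 and 6.13 at 2 h, and 6.95, 7.06 and 6.79 at 6 h. These are low values, since the fibroblast markers reached a group mean of 6.41 on the same arrays. The 3 groups did not overlap, and the order was 2 h, then vector, then 6 h, with means of 6.13 ± 0.04, 6.51 ± 0.03 and 6.94 ± 0.14 (SD, n = 3 each). The log2 difference from the vector was -0.39 ± 0.08 (SE) at 2 h, or 1.31-fold lower, and 0.42 ± 0.08 at 6 h, or 1.34-fold higher, and 6 h was 1.75-fold above 2 h. At 48 h its main probe set read 7.69 and 7.47 with 159A and 9.43 and 8.78 with Ikaros, a difference of 1.53 ± 0.29 (SE), or 2.88-fold. A second probe set, at 7.97 and 6.80 against 9.23 and 7.38, overlapped, and the last was near the floor on all 4 arrays.

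**Figure D2:**
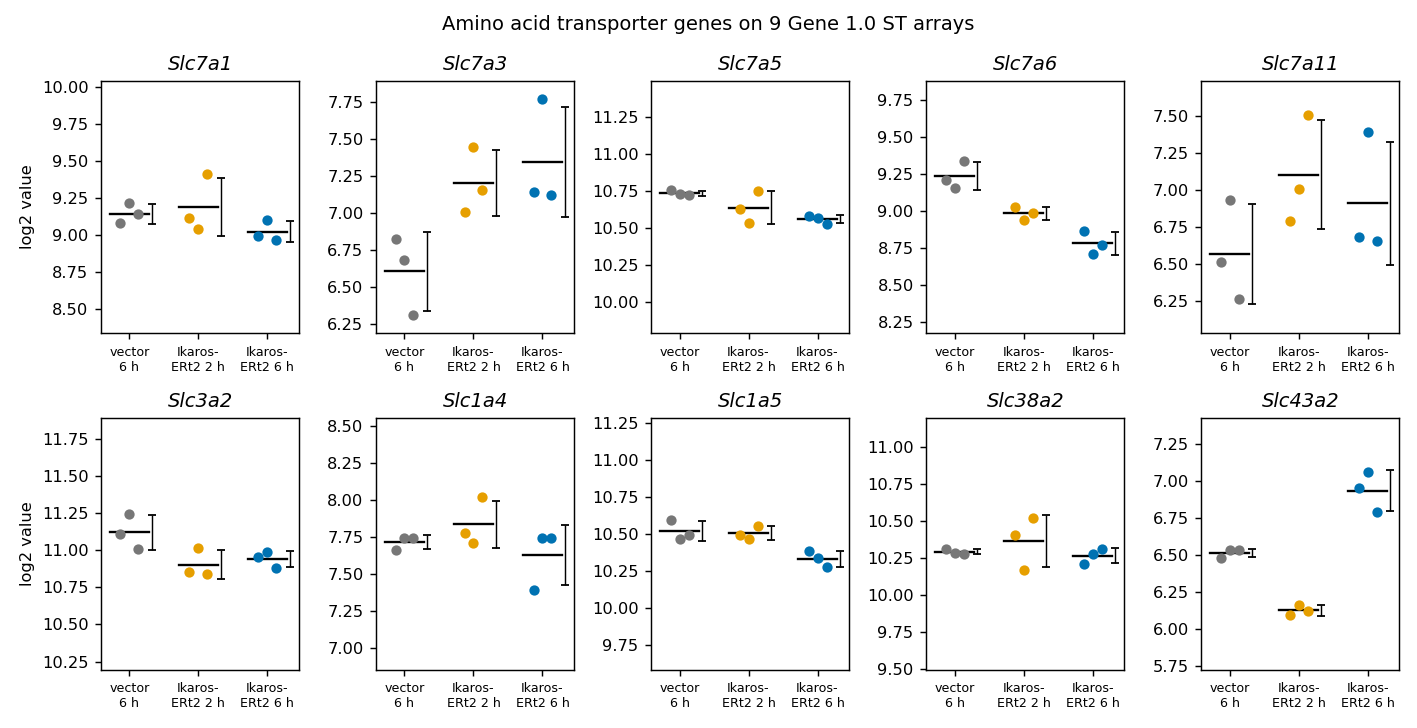
Log2 value of the 10 genes on the 9 Gene 1.0 ST arrays, with 1 point per array, a horizontal line at the group mean and a bar of ± 1 SD (n = 3). Each panel spans the same number of log2 units; the 6 h points of Slc43a2 lie at 6.79 to 7.06 and its 2 h points at 6.09 to 6.16.

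In the model fitted across all genes (limma, Benjamini-Hochberg adjusted p under 0.05), the members were called as follows, and nothing is read from these counts. At 48 h, 4 of 9 tested were called lower, Slc7a1, Slc7a3, Slc7a5 and Slc1a4, and 0 higher, while 14.8% of the 10916 genes tested were called, 6.38% higher and 8.47% lower. With the values quantile-normalized again, 6 were called, Slc1a5 lower and Slc43a2 higher in addition, beside 17.8% of all genes. At an unadjusted p under 0.05, 8 of the 9 passed in that comparison, 7 of them lower. The share of all genes at an unadjusted p under 0.05 is not given here, so unadjusted counts of members and lists have nothing beside them. At 2 h, 1 of 10 was called, Slc43a2 lower, against a background of 1.86% of 11963 genes (1.10% lower and 0.769% higher). At 6 h, Slc7a3 and Slc43a2 were called higher and Slc7a6 lower, beside 5.78% of all genes (2.58% higher and 3.20% lower). Between 2 h and 6 h Slc43a2 alone was called, higher at 6 h, beside 0.903% of all genes (0.376% higher and 0.527% lower).

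Without overlap between the arrays of 2 groups, the counts were 7 lower and 2 higher of 9 at 48 h, where 30.0% and 27.7% of all genes tested did the same (57.7% together). They were 2 lower and 1 higher of 10 at 2 h (background 9.40% and 9.23%, 18.6% together) and 4 lower and 2 higher at 6 h (10.3% and 11.0%, 21.3% together). From 2 h to 6 h, Slc7a6 and Slc1a5 were lower and Slc43a2 higher (6.91% and 7.90%, 14.8% together). The median log2 difference of the members was -1.20 at 48 h, beside 0 over all genes tested. At 2 h, 6 h and between them the members' medians were 0.02, -0.11 and -0.13, with medians over all genes within 0.01 of 0.

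**Figure D3:**
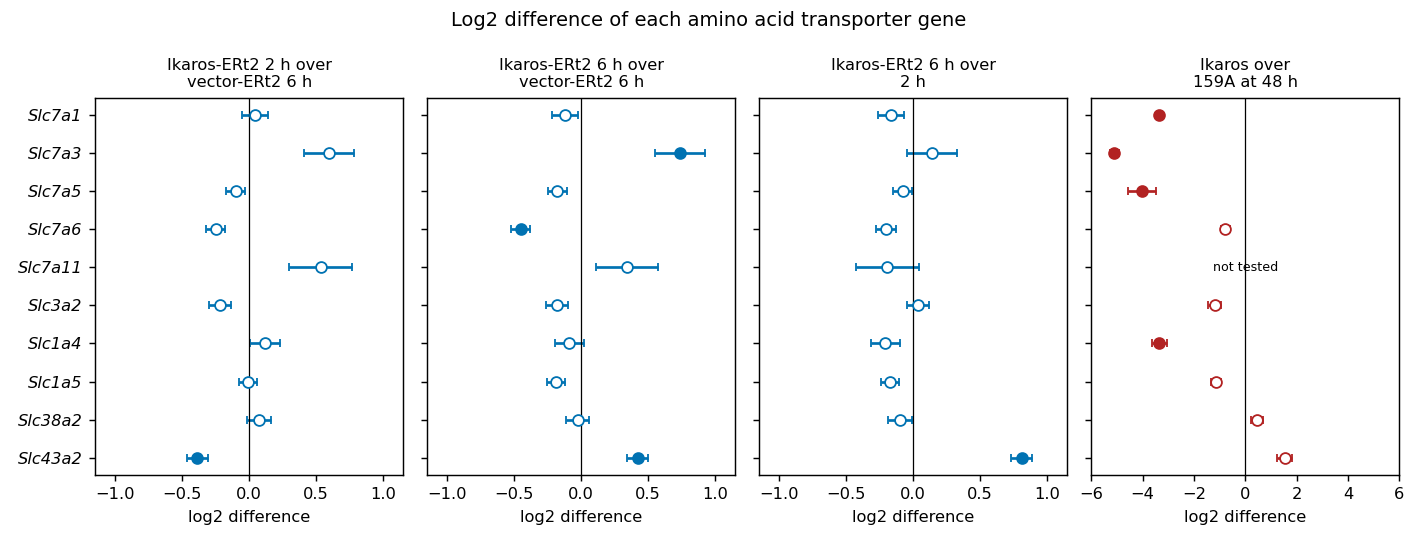
Log2 difference of each gene in the 4 comparisons with its SE as a bar, filled where limma called it over all genes tested. The 48 h axis runs to 6 on either side and the early axes to about 1, and the values at 48 h reach -5.11 for Slc7a3, whose Ikaros mean is near the floor.

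At 48 h, leaving out 1 of the 4 arrays leaves a group of 1 array and 1 residual degree of freedom, and limma then called 0 of all 10916 genes, so these fits show nothing about how stable a single call is. In these fits the log2 differences of all 9 members tested kept their sign. They could not do otherwise, since no member's arrays overlapped between the groups. Among the early calls, some were lost with 1 array left out and others were not. The 2 h call of Slc43a2 was kept only without 6 h replicate 2 or 3 and was lost without any other array, with differences of -0.41 to -0.37. The 6 h call of Slc7a3 was kept only without 2 h replicate 2 or 6 h replicate 3. The 6 h calls of Slc7a6 and Slc43a2 were kept in all 9 such fits, vector replicate 1 left out among them, with differences of -0.46 and 0.40 there. The call of Slc43a2 between 2 h and 6 h was also kept in all 9.

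Across the 9 Gene 1.0 ST arrays, which share 3 groups and 1 normalization, the members did not follow a single pattern. Slc7a5 ran with Slc1a5 (Pearson r = 0.80) and with Slc7a6 (r = 0.79), less with its heavy chain Slc3a2 (r = 0.34), and Slc7a3 ran against Slc7a6 (r = -0.88). Among 11961 other genes, those whose values were most like Slc7a5 over the 9 arrays were 1700109H08Rik, Snord95 and Otud4 (r = 0.98, 0.97 and 0.95). For Slc3a2 they were Rpl34, Rwdd3 and Esrra, all at r = 0.92, and for Slc43a2 Nsdhl, Sipa1 and Synrg, at r = 0.97, 0.97 and 0.96. These are descriptions over 9 arrays.

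Myc, a growth regulator known to act on Slc7a5 and Slc1a5 among others, fell in each comparison with a control. It read 12.19 and 12.01 with 159A and 9.29 and 9.18 with Ikaros at 48 h, and limma gave a log2 difference of -2.86 ± 0.11 (SE), or 7.25-fold, with an adjusted p of 0.018. On Gene 1.0 ST its mean was 10.65 ± 0.16 with the vector, 9.33 ± 0.29 at 2 h and 9.19 ± 0.19 at 6 h (SD, n = 3 each), and it fell by 1.32 ± 0.15 at 2 h (limma adjusted p = 0.00167) and by 1.46 ± 0.15 at 6 h (adjusted p = 4.4e-04). At 2 h and 6 h, the log2 differences from the vector were -0.10 and -0.18 for Slc7a5 and -0.01 and -0.18 for Slc1a5. Of the 10 members, 5 had positive and 5 negative differences at 2 h, and 3 and 7 at 6 h. The medians over all genes tested were -0.0071 and -2e-04 at these times, and nothing is read from the counts of signs. At 48 h, with another construct, control and array type, Slc7a5 was 16.3-fold and Slc1a5 2.19-fold lower. The part of Myc in any of these values was not tested. Atf4 RNA was not called in any comparison, with log2 differences of 0.13 at 2 h (limma adjusted p = 0.691), -0.14 at 6 h (0.592), -0.27 between them (0.308) and -0.25 at 48 h (0.296). At 48 h it read 12.43 and 12.69 with 159A and 12.32 and 12.29 with Ikaros, lower without overlap, as were 30.0% of all genes tested. ATF4 protein was not measured.

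The amino acid response genes, a list of 30 ATF4 targets and regulators outside the transporters, held more calls at 48 h than any other list here. Of 26 tested, 8 fell and 0 rose (limma, adjusted p under 0.05), beside 8.47% of all genes called lower. At an unadjusted p under 0.05 15 were lower and 0 higher, and the share of all genes at that threshold is not given. The list's median log2 difference was -0.97, beside 0 over all genes. Chac1, which degrades glutathione, was 5.29 ± 0.34 with Ikaros and 9.79 ± 0.14 with 159A (SD, n = 2 each), 22.6-fold lower (adjusted p = 0.0206). The mitochondrial folate enzyme Mthfd2 was 6.73 ± 0.21 and 10.46 ± 0.21, 13.3-fold lower (adjusted p = 0.0201). Jdp2, a bZIP repressor, was near the floor with Ikaros and at least 22.8-fold lower (adjusted p = 0.0304). The list was chosen with earlier results of these data known. Its count, 8, became 1 without the filter on low genes and 5 with every probe set tested. In these settings 1.02% of all genes and 5.48% of all probe sets were called, beside 14.8% of all genes in the main fit.

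In the first 6 h the same list had 0 or 1 call. At 2 h, 0 of 26 were called by limma, beside 1.86% of all genes, and 7 had an unadjusted p under 0.05, with Sesn2 at 0.38 (adjusted p = 0.0577) and the serine synthesis enzyme Phgdh at 0.50 (0.0663) the nearest. That count was 3 with the replicate number as a block, and 2 with quantile normalization again, with the lowest 60% of genes not tested, with only the 2 groups in the fit, or without 6 h replicate 2. It was 1 without 6 h replicate 3. At 6 h 1 of 26 was called, beside 5.78% of all genes: Cth, the cystathionine gamma-lyase of cysteine synthesis, rose by 0.46 ± 0.11 (SE, adjusted p = 0.0389). The count at 6 h became 0 without any 1 array other than 6 h replicate 1, and also without the filter on low genes. Between 2 h and 6 h 0 were called (1 with the block or without 6 h replicate 2), 7 had an unadjusted p under 0.05, and Atf3 (0.58) and Phgdh (-0.41) came nearest, at adjusted p = 0.139 and 0.151. The medians at 2 h and 6 h were 0.02 and -0.01.

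Other amino acid transporters, a list of 38 genes, had 1 to 3 calls in each comparison with a control. At 48 h, 2 of 19 tested rose and 1 fell by limma, beside 6.38% and 8.47% of all genes, with a median of 0. Slc7a7, the light chain y+LAT1, rose 4.72-fold (11.70 ± 0.30 against 9.46 ± 0.30, SD, n = 2 each, limma adjusted p = 0.0385), and Slc38a9, a lysosomal arginine sensor and carrier, 1.85-fold (adjusted p = 0.0337). Slc25a13, the mitochondrial aspartate and glutamate carrier, fell 8.38-fold (adjusted p = 0.0253). At 2 h, 1 of 18 fell and 0 rose, beside 1.10% and 0.769% of all genes, and at an unadjusted p under 0.05 3 were lower and 1 higher. The gene was Slc43a1 (LAT3), the nearest relative of Slc43a2 on the list, by 0.52 ± 0.10 (SE, adjusted p = 0.0298). At 6 h 2 of 18 rose and 1 fell, beside 2.58% and 3.20% of all genes: the sodium-coupled carriers Slc38a1 and Slc38a6 rose by 0.45 and 0.34 (adjusted p = 0.0218 and 0.032), and the taurine carrier Slc6a6 fell by 0.43 (adjusted p = 0.0179). The 6 h count, 3, became 0 without 6 h replicate 1 or any 1 vector array and 1 without 6 h replicate 2. The 2 h count, 1, became 0 without 2 h replicate 1 or 2, 6 h replicate 1 or any 1 vector array. It was also 0 without the filter on low genes, with arrays centred on their medians, with every probe set tested, and with only the 2 groups in the fit. Between 2 h and 6 h limma called 0 of 18 and 4 had an unadjusted p under 0.05, Slc66a1 (0.30) and Slc38a1 (0.27) with the smallest adjusted p, 0.192 and 0.238.

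Genes that report amino acid supply to the kinase complex mTORC1 had 3 calls at 48 h. Of 28 tested, 3 rose and 0 fell by limma, beside 6.38% and 8.47% of all genes, and 7 had an unadjusted p under 0.05. Nothing is read from the direction of so few calls. Sesn1, a leucine sensor of the sestrin family, rose 4.59-fold (14.34 ± 0.05 against 12.14 ± 0.17, SD, n = 2 each, adjusted p = 0.0216), Flcn (folliculin) 2.97-fold (adjusted p = 0.0337) and the GTPase Rragc 1.55-fold (adjusted p = 0.0302). The list's median was 0.10, and 9 of the 28 had negative differences. Fnip2, a partner of folliculin, fell at 2 h by 0.56 ± 0.11 (SE, adjusted p = 0.0254) and at 6 h by 0.66 ± 0.11 (adjusted p = 0.00455), alone of 28 tested at each time, beside 1.10% and 3.20% of all genes called lower. The 2 h count became 0 without 2 h replicate 1 or 2 or vector replicate 1 or 2, and the 6 h count became 2 without 6 h replicate 3. The 2 h count was also 0 without the filter on low genes, with every probe set tested, and with only the 2 groups in the fit. Both counts were 0 with the lowest 60% of genes not tested. Between 2 h and 6 h 0 were called and 3 had an unadjusted p under 0.05, Sesn3 (0.56) and Mios (-0.23) the nearest, at adjusted p = 0.208 and 0.355.

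Genes of glutathione and cystine use, the pathway that Slc7a11 feeds, had 0 calls by limma in all 4 comparisons. Of all genes tested, 1.86% were called at 2 h, 5.78% at 6 h, 0.903% between them and 14.8% at 48 h. With so few genes on the list, nothing is read from its 0 calls. At an unadjusted p under 0.05, 2, 3 and 1 of 16 passed at 2 h, 6 h and between them, and 4 of 12 at 48 h. The nearest were Gss and Prdx1 at 2 h (0.24 and 0.33, adjusted p = 0.202 and 0.259), Gclm and Gsr at 6 h (0.27 and 0.28, 0.147 and 0.156), and Prdx1 and Gpx1 between the times (-0.32 and -0.18, 0.291 and 0.43). At 48 h they were Nfe2l2, the regulator NRF2, at 1.47 (adjusted p = 0.0608) and Txn1 at -0.75 (0.104).

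Among 16 tested genes of amino acid turnover, which break down or convert what the carriers bring in, limma called 1 lower and 1 higher at 48 h, beside 8.47% and 6.38% of all genes, with a median of -0.72. Odc1, the ornithine decarboxylase that starts polyamine synthesis from the arginine product ornithine, fell 4.46-fold (12.85 ± 0.30 against 15.01 ± 0.10, SD, n = 2 each, adjusted p = 0.031). Bckdha, a subunit of the branched-chain ketoacid dehydrogenase, rose 1.84-fold (adjusted p = 0.032). At 6 h the branched-chain aminotransferase Bcat1 fell by 0.29 ± 0.08 (SE, limma adjusted p = 0.0474), the 1 call of 16 there, beside 5.78% of all genes. The 6 h count became 0 without any 1 array other than 6 h replicate 2 or 3, and also without the filter on low genes. At 2 h 0 were called and 0 had an unadjusted p under 0.05, with Bckdhb at 0.16 (adjusted p = 0.502) and Got1 at -0.12 (0.521). Between 2 h and 6 h 0 were called and 3 had an unadjusted p under 0.05, Bcat1 (-0.21) and Asl (0.19) the nearest, at adjusted p = 0.243 and 0.274.

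**Figure D4:**
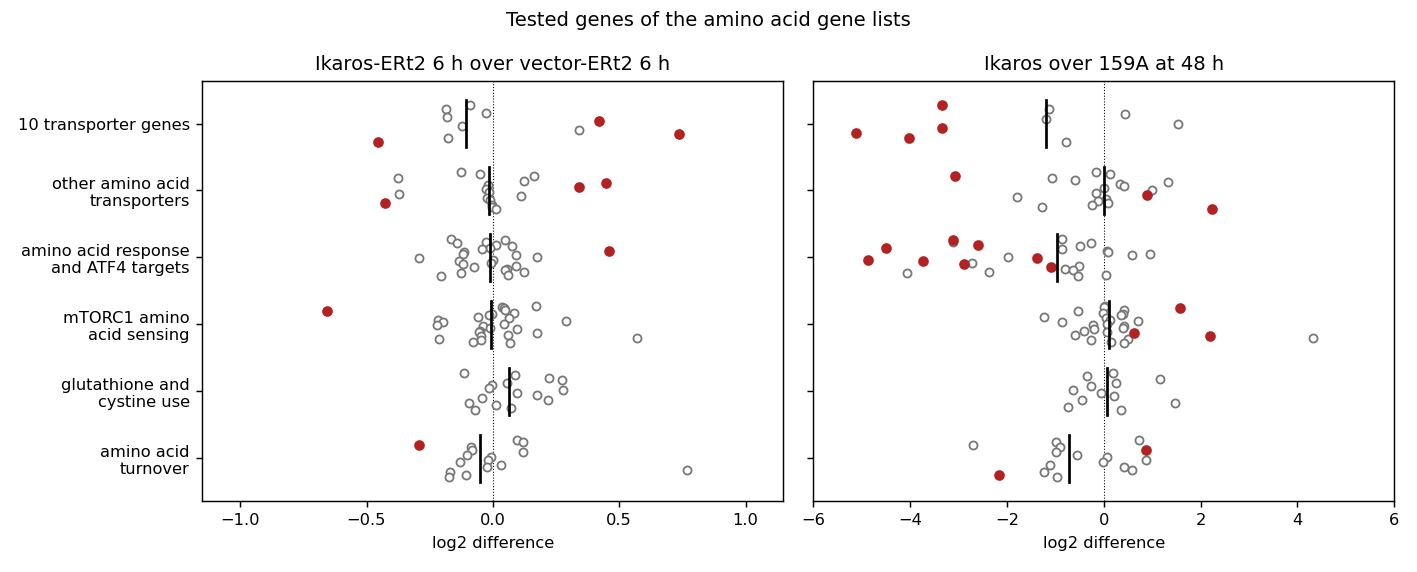
Log2 difference of each tested gene at 6 h and at 48 h, in rows for the 10 transporters and the 5 lists, filled where called by limma, with the median as a vertical bar. At 48 h the medians stand at -1.20 for the transporters, -0.97 for the amino acid response genes and 0 for the other transporters.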

How the data were processed

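The values analysed are the series' deposited log2 values, 1 table per array type, normalized apart (45101 probe sets on 430 2.0, 35556 on Gene 1.0 ST). Per the submitters' processing notes, RMA, GCRMA, affy and limma were used; which served which array type is not given in the sources used here. Gene symbols came from the annotation of each platform: 34958 and 21789 probe sets had 1 symbol, 932 and 1621 several, and 9211 and 12146 none. The probe set with the highest mean stood for a gene, the lowest 40% of genes by mean were not tested, and limma 3.58.1 (R 4.3.3; lmFit and eBayes on group means, all arrays of a type in 1 fit, Benjamini-Hochberg over all genes tested) was checked on simulated data. Genes named from a list are up to 3 called genes with the largest difference, or the 2 with the smallest p. A bound sets the brighter group's mean against the floor limit of 3.19. The members and lists were chosen with earlier results of these data known. Chromosomal positions and promoter letters are RefSeq's (GRCm38.p6). Few arrays per group limit the precision. Same-numbered replicates are not treated as pairs.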

Additional observations from a re-analysis of the deposited data

Results flagged for a closer look

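Slc43a2 stood apart because every Ikaros-ERt2 array at 2 h lay below the mean of the vector arrays and every Ikaros-ERt2 array at 6 h lay above it. The log2 difference from the vector was -0.39 at 2 h and 0.42 at 6 h, which puts the 2 times 0.81 apart. Both differences share the vector arrays, and the difference between the 2 effects was not tested apart from the comparison of 6 h with 2 h.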

How the results depend on the processing

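Of 647 log2 differences of the members recomputed under other settings, 644 stayed within 1 SD, 0 of the called ones changed sign, and 3 moved, all at 48 h with a gene's probe sets averaged: Slc7a1 (-2.41), Slc1a4 (-1.38) and Slc43a2 (0.82). Many could not move. A changed filter, other eBayes options, a replicate block or testing every probe set leaves a difference of group means as it is. So does a fit of only the 2 groups or without an array of another group. The 644 is therefore no measure of stability. Leaving out 1 array could not reverse a called difference either, as the arrays of its groups did not overlap. Small uncalled early differences of Slc1a5, Slc38a2, Slc7a1, Slc7a11, Slc7a3 (6 h over 2 h) and Slc1a4 changed sign in at least 1 fit. The count of members called at 2 h, 1, became 0 with arrays centred on their medians (5 at an unadjusted p under 0.05 by limma) and 0 with every probe set tested (4), and ranged from 0 to 1 with 1 array left out. At 6 h it was 2 to 3 throughout. Between 2 h and 6 h, 1 became 0 with only the 2 groups in the fit (3 unadjusted), where limma called 0 of all 11963 genes. At 48 h, 4 became 2 without the filter on low genes, 2 with every probe set tested, and 0 to 0 with 1 array left out (4 to 8 unadjusted), where 0 of all genes passed. It became 6 with the values quantile-normalized again (Slc1a5 and Slc43a2 added) and with the lowest 60% of genes not tested (Slc3a2, Slc1a5 and Slc43a2 added, Slc7a3 not tested), and with probe sets averaged it was 4, Slc7a6 in place of Slc1a4. The share of all genes called at 48 h moved as well, from 14.8% to 17.8%, 24.3% and 15.1% in these settings. It was 1.02% without the filter, and 5.48% of probe sets with every probe set tested. With the replicate number as a replicate block, which leaves 1 residual degree of freedom at 48 h, 0 of the members and 0 of all genes were called (8 members unadjusted), and the early counts were 1, 3 and 1; deviations of same-numbered arrays correlated at 0.57 on 430 2.0 and at -0.26 to 0.24 on Gene 1.0 ST. Over the settings, the calls at 48 h ranged from 0 to 12 among the amino acid response genes, 0 to 4 among other transporters, mTORC1 genes and turnover genes each, and 0 to 2 among glutathione genes. Centring shifted all differences of a comparison by at most 0.03. On 430 2.0 the floor limits what can be said of Slc7a11 and of the size of the Slc7a3 difference.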
